A study of Mus musculus with 2 samples.

Results

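The 10 genes studied here, known from the Purkinje cell lineage, were followed through a single-base map of N6-methyladenosine (m6A) in newborn mouse brain: Rora, Foxp2, Ebf1, Ebf2, Ebf3, Itpr1, Calb1, Car8, Pcp4 and Cbln1. A called m6A site was assigned to a gene when its position lay inside the gene's GENCODE M21 interval on GRCm38 and on the gene's own strand. By this rule the 10 genes held 168 of the 79355 sites called in the cerebellum library and 248 of the 188295 sites called in the cerebrum library. The union of both libraries was 349 of 219409 positions.

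The map came from GLORI, an assay in which glyoxal and nitrite convert unmethylated adenosines to inosine, so that an adenosine still read as A is scored as m6A. There were 2 libraries, 1 from cerebellum and 1 from cerebrum, both made from poly(A)+ RNA of a female P0 (postnatal day 0) F1r hybrid of a C57 mother and a PWK father. Per the study's methods both tissues came from 1 mouse. With 1 library per tissue there was no replicate check, so differences between the tissues are given as values of these libraries without a p-value. The deposited data held positions of called sites only, with no methylation rate and no read count, and the depth of each library is unknown. A position missing from a library may therefore be unmethylated there, not transcribed or too thinly covered, and these cannot be told apart.

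Purkinje cells are the large GABAergic neurons that carry the output of the cerebellar cortex. They arise from the ventricular zone of the embryonic cerebellum, and their known regulators include the nuclear receptor Rora, the forkhead factor Foxp2 and the Ebf family of helix-loop-helix factors, while Itpr1, Calb1, Car8 and Pcp4 act in the calcium signalling for which these cells are known. Cbln1 differs from the others in that it is made by granule cells, which secrete it onto Purkinje cells. m6A is placed on messenger RNA by a nuclear methyltransferase complex, mostly in the context called DRACH, where D is A, G or T, R is A or G, and H is A, C or T around the methylated A. It is known to be dense in last exons and near stop codons, and is linked to mRNA turnover.

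The tissue labels were set against marker genes through the numbers of exonic DRACH sites, that is, DRACH sites on exons of complete coding transcripts. All 12 forebrain and cortex genes had more such sites in the cerebrum library, with 218 sites there and 30 in the cerebellum library. Of 7 hindbrain patterning genes 3 had such sites, 2 with more in cerebellum (En1 with 5 and 0, En2 with 8 and 0) and Gbx2 with 1 in cerebellum and 2 in cerebrum. Of 10 granule cell and rhombic lip genes 7 had such sites, 3 with more in cerebellum, 3 with more in cerebrum and 1 with equal counts. They ranged from Barhl1, with 11 in cerebellum and 0 in cerebrum, to Neurod1, with 0 and 15. Of the Purkinje cell markers Pcp2, Skor2, Ptf1a and Pvalb, no site of any kind was called in either library. Over all coding genes, exonic DRACH sites numbered 44183 in cerebellum and 75466 in cerebrum, a ratio against which the counts of single genes are read. Of the 9730 coding genes with at least 1 such site, 7.74% had more in cerebellum. More in cerebrum, or equal counts, was thus the common case over all genes, and the list counts above are read beside that share.

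To show what a called site looks like in each gene, the exonic DRACH site nearest the stop codon was read from GRCm38, taking a site of both libraries where there was any. Each line gives 10 bases on either side of the site, 5′ to 3′ on the gene's strand, with the DRACH 5-mer in capitals and the methylated A at its centre.
Rora, chr9:69378869-69378889, plus strand, last coding exon, both libraries: atatacccAGACAttgtgcga
Foxp2, chr6:15438043-15438063, plus strand, 3′ UTR, both libraries: gtgtgaagGGACAtatcactg
Ebf1, chr11:45004858-45004878, plus strand, 3′ UTR, both libraries: tcacacaaTAACTgcagattt
Ebf2, chr14:67428286-67428306, plus strand, 3′ UTR, cerebellum only: tgaagcatTGACAgtcactac
Ebf3, chr7:137196227-137196247, minus strand, 3′ UTR, both libraries: gctacaaaAGACAtttaaaga
Itpr1, chr6:108241301-108241321, plus strand, coding exon 4, both libraries: ggggacctTAACAatccaccc
Pcp4, chr16:96525577-96525597, plus strand, 3′ UTR, cerebrum only: aatgaaaaGAACAatacccta
Cbln1, chr8:87470244-87470264, minus strand, stop codon, both libraries: ttcccctcTGACTggcacgta
The Cbln1 site was the last base of its TGA stop codon. Calb1 and Car8 had no exonic DRACH site in either library and are not shown.

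Exonic DRACH sites of the 10 genes numbered 81 in cerebellum and 74 in cerebrum. Of the 102 positions in the union, 53 were called in both libraries, 28 in cerebellum only and 21 in cerebrum only. Foxp2 held 30 and 31 of these sites in cerebellum and cerebrum, Rora 16 and 11, Ebf3 13 and 5, Cbln1 11 and 15, Ebf1 6 and 8, and Ebf2 4 and 0. The calcium genes had few: Itpr1 had 1 and 3 sites, Pcp4 had 0 and 1, and Calb1 and Car8 had 0 in both. In cerebellum, 69 of the 81 lay in the transcription factors Rora, Foxp2, Ebf1, Ebf2 and Ebf3, and in cerebrum 55 of 74. Exonic DRACH adenosines numbered 248 in Rora, 216 in Foxp2, 120 in Ebf2, 112 in Ebf3 and 104 in Ebf1. They numbered 218 in Itpr1, 107 in Calb1, 67 in Car8, 49 in Cbln1 and 10 in Pcp4. The site counts above are not corrected for these motif numbers. In bulk tissue a count of called sites also depends on transcript abundance, and fewer cells of a type and less RNA per cell cannot be told apart.

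**Figure D1:**
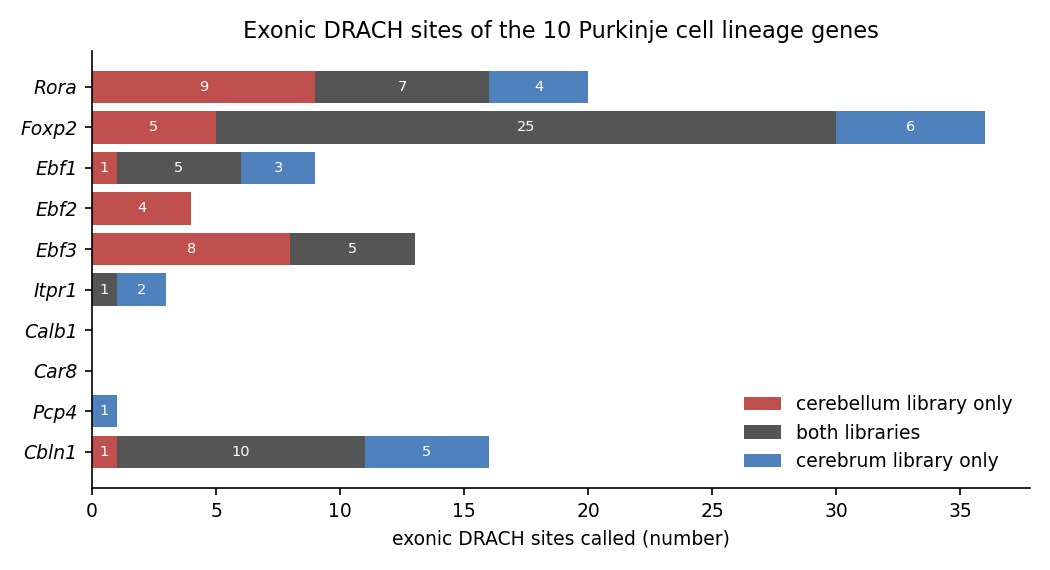
Number of exonic DRACH sites called in each of the 10 genes (horizontal bars), split into sites of the cerebellum library only, of both libraries and of the cerebrum library only. Foxp2 has the longest bar, with 25 of its 36 sites in both libraries, while all 4 Ebf2 sites come from the cerebellum library and Calb1 and Car8 have none.

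Counted over all kinds of site, the 10 genes shared 67 positions between the libraries. That was 39.9% of their cerebellum sites (Wilson 95% interval 32.8 to 47.4) and 27.0% of their cerebrum sites (21.9 to 32.9), against 60.8% and 25.6% of all sites of each library. These intervals cover counting error over sites only, and sites of a gene are not independent. DRACH sites were 92 of 168 in cerebellum (54.8%, 47.2 to 62.1) and 81 of 248 in cerebrum (32.7%, 27.1 to 38.7), against 62.1% and 46.7% over all sites. Shared positions were DRACH in 54 of 67 cases (80.6%, 69.6 to 88.3) and those of a single library in 65 of 282 (23.0%, 18.5 to 28.3), where the shares over all sites were 82.7% and 33.6%. For exonic DRACH sites alone, 65.4% of those in cerebellum were also called in cerebrum, where the value over all coding genes was 83.6%, and 71.6% of those in cerebrum were also called in cerebellum, where it was 49.0%.

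The DRACH sites lay at the 3′ end of the transcripts. Among exonic DRACH sites, 77 of 81 in cerebellum (95.1%, 88.0 to 98.1) and 67 of 74 in cerebrum (90.5%, 81.7 to 95.3) were in 3′ UTRs, whereas over all coding genes these shares were 57.3% and 55.8%. Of the 102 positions, 97 were in the last exon of the isoform. Within the 3′ UTR they reached far from the stop codon: 41 of 77 cerebellum sites (53.2%, 42.2 to 64.0) and 34 of 67 cerebrum sites (50.7%, 39.1 to 62.3) fell within 1000 nt of it, against 69.1% and 68.8% over all coding genes. The 3′ UTRs of the 10 genes ran from 276 nt in Pcp4 to 9285 nt in Rora.

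Exons upstream of the last held few DRACH sites. Of 462 DRACH adenosines there, 2 were called in cerebellum and 4 in cerebrum. The sites were a TAACA in exon 4 of Itpr1 and a TGACA in exon 1 of Ebf1, both found in both libraries, and in Cbln1 a GGACA in exon 1 and an AGACA in exon 2, both found in cerebrum. Most of these exons were short, and in exons up to 200 nt the called share was 1 of 369 (0.271%, 0.0479 to 1.52) in cerebellum and 2 of 369 (0.542%, 0.149 to 1.95) in cerebrum. Over all coding genes with an exonic DRACH site, exons of that length had 0.175% and 0.569% called, and exons over 400 nt had 10.8% and 17.9%. The 33 DRACH adenosines of the 10 genes in exons over 400 nt had 1 and 2 called.

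Rora (chr9:68653786-69388246, plus strand) encodes a nuclear receptor that Purkinje cells need to mature. Its isoform Rora-201 has 11 exons and a 3′ UTR of 9285 nt. Of 16 exonic DRACH sites in cerebellum and 11 in cerebrum, 7 were shared: the AGACA before the stop codon printed above and sites 110, 269, 1135, 3785, 8916 and 8923 nt after the stop codon. A dense group lay within 1000 nt of the stop codon, with 7 sites in cerebellum and 4 in cerebrum. No DRACH site of either library fell between 3989 and 6896 nt, a stretch of 2907 nt that holds 67 DRACH adenosines, and a second group lay near the distal end, at 8266 to 8968 nt. Both libraries called sites in that distal group, 3 in cerebellum and 4 in cerebrum. On all kinds of site Rora had 52 in cerebellum and 55 in cerebrum, so the order of the tissues seen for exonic DRACH sites was not kept.

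Foxp2 (chr6:14901349-15441977, plus strand) encodes a forkhead repressor made in Purkinje cells and also in deep cortical and striatal neurons. It had the most sites of the 10 genes. In the 3′ UTR of its isoform Foxp2-207, 3956 nt long, 30 DRACH sites were called in cerebellum and 30 in cerebrum, and they ran from 32 to 3778 nt after the stop codon with a median spacing of 92 nt in cerebellum and 68 nt in cerebrum. The longest stretch without a DRACH site, from 1154 to 1604 nt, was the same in both libraries. Positions called in both libraries numbered 25, with 5 called in cerebellum only and 6 in cerebrum only. The last of these included an AAACA in the 5′ UTR of a shorter transcript, Foxp2-203, whose exon 1 lies within intron 3 of Foxp2-207. No DRACH site was called in the Foxp2 coding sequence in either library.

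**Figure D2:**
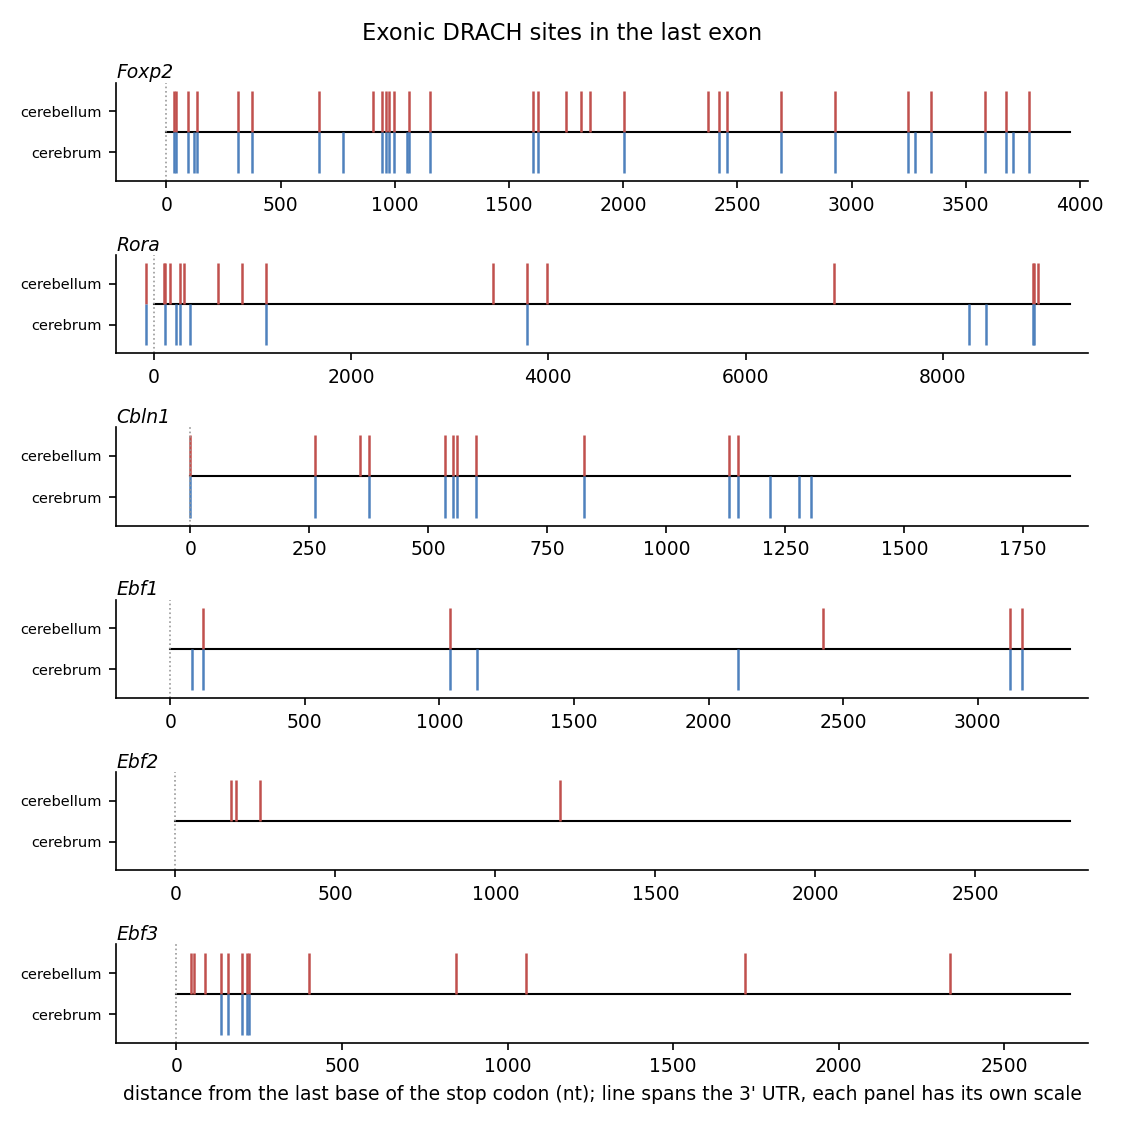
Position of last-exon DRACH sites relative to the last base of the stop codon (x axis, nt) for 6 genes, with cerebellum sites above the line and cerebrum sites below it; the line spans the 3′ UTR and each panel has its own scale. Foxp2 sites cover the 3′ UTR in both libraries, Rora has an empty stretch from 3989 to 6896 nt, Ebf2 has sites above the line only, and the 5 cerebrum sites of Ebf3 lie between 134 and 219 nt.

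The Ebf factors are related proteins of early B cell factor type that act in neuronal differentiation and migration, and they differed from each other in their sites. Ebf1 (chr11:44617317-45008091, plus strand) had 6 exonic DRACH sites in cerebellum and 8 in cerebrum, 5 of them shared. Its shared sites were the TGACA in exon 1, in the 5′ UTR, and 3′ UTR sites 120, 1038, 3119 and 3165 nt after the stop codon. Ebf2 (chr14:67233292-67430918, plus strand) had DRACH sites only in cerebellum, at 174, 189, 266 and 1203 nt after the stop codon. Its 4 cerebrum sites were all outside DRACH, at 1813, 1816, 2499 and 2504 nt, and no Ebf2 position was shared. Ebf3 (chr7:137193673-137314445, minus strand) had 13 exonic DRACH sites in cerebellum, and the 5 in cerebrum were all among them.

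Proximal sites of Ebf2 and Ebf3 are printed to set the pair that Ebf2 had in cerebellum only beside the 5 that Ebf3 had in both libraries. Capitals mark the DRACH 5-mers of called sites.
Ebf2, 174 and 189 nt after the stop codon, chr14:67428289-67428318, plus strand, cerebellum only: agcatTGACAgtcactacacAAACTgaccc
Ebf3, 134 and 155 nt after the stop codon, chr7:137196212-137196241, minus strand, both libraries: aaAGACAtttaaagattttatttAAACTgt
Ebf3, 197, 214 and 219 nt after the stop codon, chr7:137196149-137196177, minus strand, both libraries: tGAACAattccactttatTGACTGAACTc
The other 8 Ebf3 DRACH sites, called in cerebellum only, flanked this run on both sides, at 43, 53 and 86 nt and from 401 to 2336 nt. These stretches were chosen after the sites were seen. The coding sequences of the 3 genes were 73.8% to 79.4% identical over the aligned bases, and 14 to 17 DRACH adenosines stood at the same aligned position in each pair. No DRACH site was called in the coding sequence of any of the 3 genes. Outside DRACH, 2 coding positions were called in Ebf1 and 2 in Ebf3, and none fell at the same aligned position.

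Itpr1 (chr6:108213096-108551109, plus strand) encodes the inositol trisphosphate receptor that releases calcium from the endoplasmic reticulum. Its coding isoform has 62 exons and 218 DRACH adenosines, of which 1 was called in cerebellum (0.459%, 0.0810 to 2.55) and 3 in cerebrum (1.38%, 0.469 to 3.97). Over all coding genes with an exonic DRACH site, 4.93% and 8.44% were called. In Itpr1, 192 of the 218 lie upstream of the last exon, and its internal exons have a median length of 139.5 nt. Exons up to 200 nt had 0.175% and 0.569% called over all these genes. The site of both libraries was the TAACA of exon 4 printed above, and the other cerebrum sites were GGACT at 166 and 247 nt in the 3′ UTR. Over all kinds of site Itpr1 had 2 in cerebellum and 35 in cerebrum, of which 30 of the cerebrum sites were outside DRACH.

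Calb1 (chr4:15881264-15908064, plus strand), a cytosolic calcium buffer, had 2 sites in cerebellum and 5 in cerebrum. None was shared and none was in DRACH, although its exons hold 107 DRACH adenosines, so that the called share was 0% with an upper 95% limit of 3.47% in each library. Over all coding genes with an exonic DRACH site the share was 4.93% in cerebellum and 8.44% in cerebrum. Car8 (chr4:8143362-8239041, minus strand), a carbonic anhydrase-related protein that binds the Itpr1 receptor, had 0 and 3 sites, also all outside DRACH, among 67 DRACH adenosines (upper limit 5.42%). Pcp4 (chr16:96467606-96525793, plus strand), a small calmodulin-binding protein, has 10 DRACH adenosines in its exons and had the GAACA printed above, 70 nt after the stop codon, as its only site. With read depth unknown, a low count in these genes says nothing of the methylation level of their transcripts.

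Cbln1 (chr8:87468405-87472609, minus strand) encodes a secreted glycoprotein that acts at the synapses between granule cell axons and Purkinje cells. It is the shortest of the genes at 4.21 kb and had the most exonic DRACH sites per kb of exon, 3.93 in cerebellum and 5.36 in cerebrum. Foxp2 came next on that scale at 3.11 and 3.21. Of 11 cerebellum sites and 15 cerebrum sites, 10 were shared, from the stop codon to 1150 nt after it. The sites 1218, 1279 and 1304 nt after the stop codon were called in cerebrum only, and the 1 DRACH site called in cerebellum only was a GAACC at 357 nt. The densest shared run of Cbln1 is shown because 3 sites fall within 30 bases, 535, 551 and 560 nt after the stop codon. It was chosen after the sites were seen.
Cbln1, chr8:87469692-87469721, minus strand, both libraries: AGACTcaccttcgtggTGACTggttTGACT

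Since the genes differ in length and motif number, called sites were also counted per DRACH adenosine. In last exons, 79 of 724 DRACH adenosines were called in cerebellum (10.9%, 8.84 to 13.4) and 69 in cerebrum (9.53%, 7.60 to 11.9), against 6.77% and 11.5% over the 9480 coding genes of more than 1 exon that had an exonic DRACH site. Without Calb1 and Car8, which had no such site, the shares of the other 8 genes were 13.4% (10.9 to 16.3) and 11.7% (9.33 to 14.5). Cbln1 had the highest share in both libraries, with 30.6% (18.0 to 46.9) in cerebellum and 36.1% (22.5 to 52.4) in cerebrum. Foxp2 had 26.1% in each library (18.9 to 34.8). Rora, with the most DRACH adenosines in its last exon, had 7.55% (4.70 to 11.9) and 5.19% (2.92 to 9.05). The Rora intervals lay below those of Foxp2 in both libraries, and those of Cbln1 and Foxp2 overlapped.

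The Ebf genes spread between these values. Ebf3 had 19.1% (11.5 to 30.01) in cerebellum and 7.35% (3.18 to 16.1) in cerebrum, and Ebf2 had 5.97% (2.35 to 14.4) and 0% (up to 5.42). Ebf1 had 8.06% (3.49 to 17.5) and 11.3% (5.58 to 21.5). In each of the 3 genes the intervals of the libraries overlapped. The same adenosines were scored in both libraries, and the intervals do not use this pairing. By position, exonic DRACH sites of Ebf3 were 8 in cerebellum only and 0 in cerebrum only. Those of Ebf2 were 4 and 0, and those of Ebf1 were 1 and 3.

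**Figure D3:**
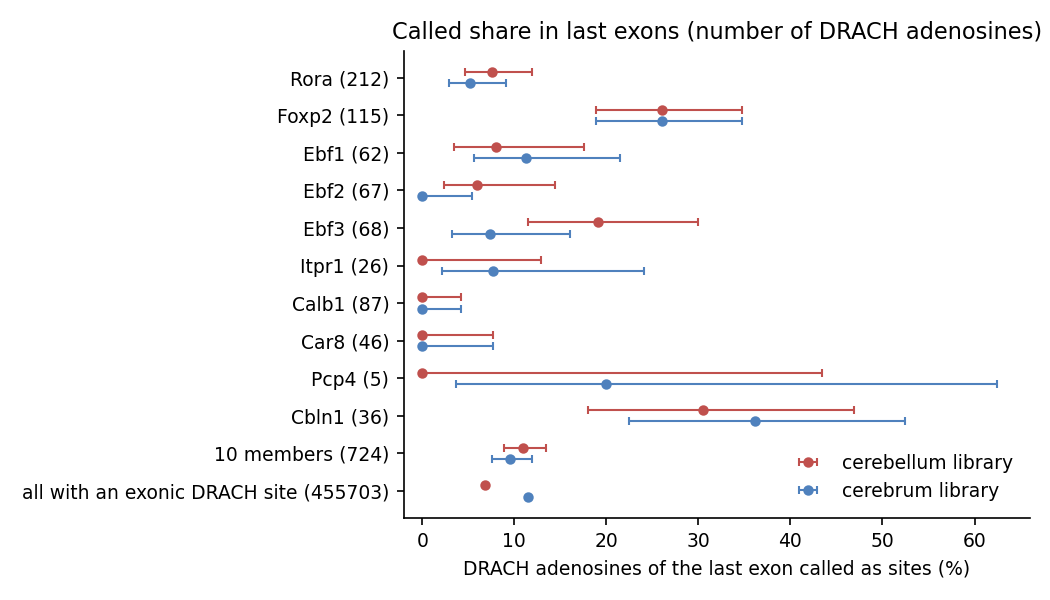
Percentage of DRACH adenosines of the last exon that were called as sites (x axis), for each gene, the 10 genes together and all coding genes with an exonic DRACH site; points are the value in each library, bars are Wilson 95% intervals over adenosines, and the number of adenosines is in parentheses. Cbln1 and Foxp2 lie to the right of Rora, and Ebf2 and Ebf3 have their cerebellum point to the right of their cerebrum point.

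How often a DRACH adenosine was called differed with the last base of its 5-mer. In last exons of the 10 genes, DRACH adenosines ending in T were called in 17.3% of 260 cases in cerebellum (13.2 to 22.4) and 15.4% in cerebrum (11.5 to 20.3). Those ending in A were called in 7.86% of 318 (5.38 to 11.3) and 7.23% (4.87 to 10.6), and those ending in C in 6.16% of 146 (3.28 to 11.3) and 4.11% (1.90 to 8.68). The order was that of all coding genes, at 12.1%, 4.62% and 2.93% in cerebellum and 19.8%, 8.21% and 5.40% in cerebrum. By 5-mer, GGACT was called in either library at 12 of 32 positions (37.5%) and AGACT at 15 of 44 (34.1%). The most frequent 5-mer, AAACA, was called at 5 of 102 (4.90%), and 4 of the 18 DRACH 5-mers were called at none of their 124 last-exon positions. These shares in either library are not on the scale of shares in a single library. Over all coding genes, each library taken singly, GGACT was called at 18.5% in cerebellum and 32.3% in cerebrum, beside 8 and 6 of 32 in the 10 genes. AGACT was called over all coding genes at 14.7% and 23.7%, beside 12 and 11 of 44 in the 10 genes. AAACA was called at 1.89% and 3.25%, beside 3 and 4 of 102. The 4 5-mers without a call had 0.269% to 2.92% and 0.669% to 5.68%.

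Sites outside DRACH were mostly found in a single library. Of 76 such sites in cerebellum 13 were also called in cerebrum (17.1%, 10.3 to 27.1), and these were 13 of 167 in cerebrum (7.78%, 4.61 to 12.9). Over all sites outside DRACH the shares were 27.7% and 8.31%. On exons of coding transcripts there were 9 shared positions outside DRACH, of which 8 were 1 base away from a DRACH 5-mer. They included GTACT in Foxp2 at 805 and 1238 nt and in Cbln1 at 1126 nt, and GGACG in Cbln1 at 615 and 749 nt. In cerebrum only, 37 exonic positions were more than 1 base away from DRACH, against 7 in cerebellum only. Over all sites, the cerebrum library held 100279 outside DRACH and the cerebellum library 30081. Itpr1 had 13 exonic sites outside DRACH in cerebrum and 0 in cerebellum. A pair of Rora sites of the cerebrum library lay at a G in GRCm38. They are printed to show this base, with the 5-mer around it in capitals.
Rora, chr9:68915921-68915941, plus strand, intron, cerebrum only: cttcctttGAGCTtgaatctc
Rora, chr9:69383756-69383776, plus strand, 3′ UTR, cerebrum only: tgttgagtTCGAAattcttgt
Because the authors also mapped reads to a genome carrying PWK bases, a called site can stand where the C57 reference has another base, and which allele carries an A there was not tested.

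In cerebellum 57 sites were intronic (33.9%, 27.2 to 41.4), against 16.7% of all sites of that library. In cerebrum 97 were (39.1%, 33.2 to 45.3), against 24.0%. DRACH sites were 10 of 57 in cerebellum (17.5%, 9.82 to 29.4) and 5 of 97 in cerebrum (5.15%, 2.22 to 11.5), where all intronic sites had 14.9% and 12.8%. Rora carried all 10 cerebellum DRACH sites and 3 of the 5 in cerebrum. Its 63 intronic positions were all in intron 1 of Rora-201, which makes up 75.1% of its intron length, and lay 8.06 to 408 kb from the gene start. Of these, 30 were called in cerebellum and 34 in cerebrum, with 1 in both, a position outside DRACH. That was 3.33% (0.591 to 16.7) of its cerebellum and 2.94% (0.521 to 14.9) of its cerebrum intronic sites, against 11.4% and 3.32% over all intronic sites.

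Intronic sites of the other genes were outside DRACH with 2 exceptions, a TAACC in Foxp2 and a GAACT in Itpr1, both in cerebrum. Foxp2 had 12 in cerebellum and 43 in cerebrum, 1 of them shared, most of them in its introns 4 and 5. The 17 intronic positions of Ebf1 were all in intron 6, with 8 in cerebellum and 9 in cerebrum and none shared. Ebf3 had 7 in cerebellum and 0 in cerebrum, and Itpr1 had 0 and 11. Ebf2, Calb1, Car8, Pcp4 and Cbln1 had no intronic site. No site of the 10 genes fell in an annotated gene overlapping on the same strand.

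**Figure D4:**
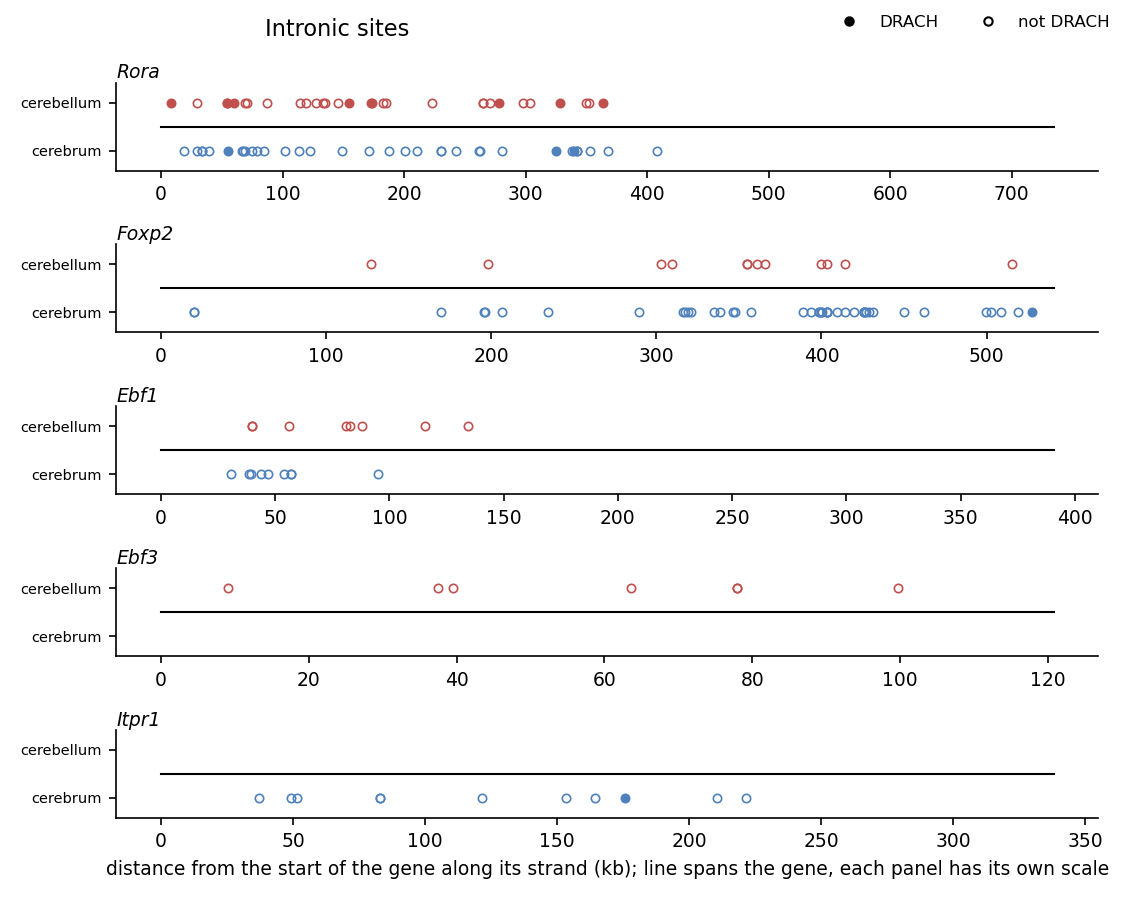
Intronic sites of 5 genes by distance from the gene start (x axis, kb along the gene's strand), with cerebellum above and cerebrum below the line that spans the gene; filled points are DRACH sites and open points are others. Rora sites end 408 kb from the start of a gene of 734 kb and include the filled cerebellum points, and Itpr1 has cerebrum points only.

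The balance of the libraries was set against all coding genes. Among the 5078 genes with at least 5 exonic DRACH sites in the union, 5.85% had more in cerebellum than in cerebrum and 43.5% had at least 2-fold fewer. Of the 5 genes of the lineage that passed this filter (Rora, Foxp2, Ebf1, Ebf3 and Cbln1), Rora and Ebf3 had more in cerebellum, and none had at least 2-fold fewer. Ebf2, with 4 sites and 0, Itpr1, with 1 and 3, and Pcp4, with 0 and 1, did not reach 5 sites. Calb1 and Car8 had none. The log2 ratio of cerebellum over cerebrum counts, each with 0.5 added, had a median of -0.74 over the 5078 genes. It was 1.30 in Ebf3, above 99.3% of these genes, and 0.52 in Rora, above 98.2%. Foxp2 had -0.05, above 88.7%, Ebf1 -0.39, above 70.8%, and Cbln1 -0.43, above 69.0%. The intervals of all 5 ratios included 0, with -0.20 to 3.22 in Ebf3 and -0.66 to 1.79 in Rora. These intervals rest on the 2 counts of a gene and do not use which of its sites were shared. When the cerebellum counts were multiplied by 1.71, the ratio of the libraries' exonic DRACH totals, all 5 genes had more in cerebellum, as did 49.4% of all genes tested, and none had at least 2-fold fewer, as did 19.6%. With at least 1 site in place of 5, Rora, Ebf2 and Ebf3 of 8 genes had more in cerebellum, against 7.74% of genes. Itpr1 and Pcp4 had at least 2-fold fewer there, against 54.6% of genes. With at least 10 sites, Rora and Ebf3 of 4 genes had more in cerebellum, against 4.74%, and none had at least 2-fold fewer, against 34.8%. Over all kinds of site, Ebf2 and Ebf3 of 8 genes with at least 5 sites had more in cerebellum, against 2.95%. Itpr1, with 2 and 35, and Calb1, with 2 and 5, had at least 2-fold fewer there, against 68.6%.

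**Figure D5:**
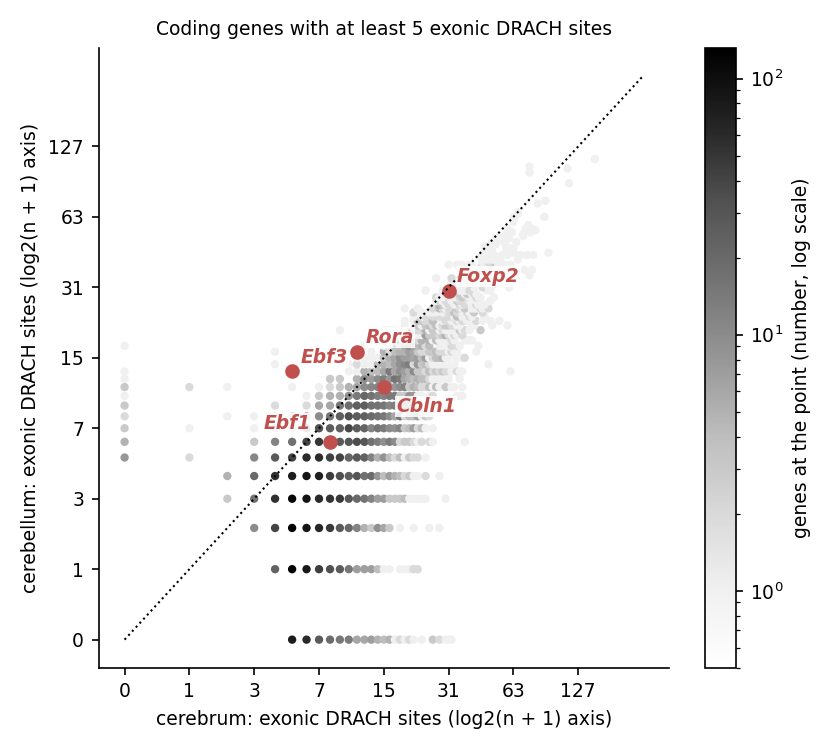
Exonic DRACH sites per coding gene in cerebrum (x axis) and cerebellum (y axis), both on a log2(n + 1) scale with counts as tick labels, for the 5078 genes with at least 5 such sites; grey shade is the number of genes at a point on a log scale and the dotted line marks equal counts. Rora and Ebf3 (red) lie above the line, and Foxp2, Cbln1 and Ebf1 on its lower side.

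Relatives of the 10 genes and other Purkinje cell genes gave a mixed picture. Of 14 family relatives, 8 had an exonic DRACH site, 1 with more in cerebellum (Car10, 10 and 6), 4 with more in cerebrum and 3 with equal counts. Foxp1 had 4 and 11, Foxp4 1 and 5, and Rorb 5 and 10, so these relatives of Foxp2 and Rora had the greater count in cerebrum. Cbln4 had 6 in each library, and Cbln2 and Cbln3 had none. Of 24 other Purkinje cell genes, 19 had an exonic DRACH site, and 7 of these had more in cerebellum, 11 more in cerebrum and 1 equal counts. Among all coding genes with at least 1 such site, 7.74% had more in cerebellum, the share beside which both lists are read. The LIM homeodomain gene Lhx1 had 11 and 1, and En2 had 8 and 0. Among the 12 of these genes with at least 5 sites the median log2 ratio was -0.32, against -0.74 over all genes tested. It was -0.93 over 5 family relatives, 0 over 5 granule cell and rhombic lip genes and 0 over 5 glial genes. In each of the granule cell and glial lists 2 of 5 were higher in cerebellum, the same count as for the lineage genes, whose median was -0.05. Also higher there were 3 of 12 other Purkinje cell genes, 1 of 5 relatives and 2 of 2 hindbrain patterning genes. Of forebrain and cortex genes 0 of 11 were, and of microglia and vessel genes 0 of 1. The share of all genes tested was 5.85%. En2 stands in both the Purkinje cell and the hindbrain list.

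The genes most like Ebf3 in their pair of counts, by Euclidean distance of log2(count + 1) over the 2 libraries, were Creg2 with 11 and 5 sites (distance 0.222), Mab21l1 with 14 and 4 (0.281) and Ndst4 with 16 and 4 (0.384). The measure rests on 2 values per gene.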

How the data were processed

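The authors deposited, per library, the genomic positions of called m6A sites, 1 line per site. Per the methods they called sites with GLORI-tools (v1.0) on mm10 and on mm10 carrying PWK bases, and kept positions of the union whose methylation rate exceeded 0.1 with over 8 reads. Rates and counts are not part of the files used here.

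Positions were matched by chromosome, position and strand. Bases were read from GRCm38 (the same assembly as mm10) with pysam 0.24.0, and genes, exons and coding regions from GENCODE M21, where the methods name GENCODE v26. A site was exonic when it lay on an exon of a transcript with complete coding sequence and both UTRs. Its region came from the longest such transcript covering it, and last exons from the longest such transcript of the gene. Shares carry Wilson 95% intervals (scipy 1.17.1). Genes entered the comparison of libraries with at least 5 exonic DRACH sites in the union, and log2 ratios used counts plus 0.5. The steps from position to transcript coordinate, 5-mer and coding span were tested on simulated data. Alternatives were motif, gene part, isoform, site matching, filter, scale and leaving out the gene with the most sites. All 10 genes are named, and the gene lists and the genes themselves were chosen with earlier results of these data known. Printed sequences are, by rule, the sites nearest the stop codon, with short runs added after the sites were seen.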

Additional observations from a re-analysis of the deposited data

How the results depend on the processing

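No paired analysis was possible because each tissue had 1 library and the labels carry no replicate numbers. For the same reason no replicate was left out.

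Of 52 values recomputed under alternatives, 28 stayed within their interval (counts: within 1.5 times) and 24 moved; no result had a test. Member sites fell to 92 (cerebellum) and 81 (cerebrum) with DRACH sites only, to 111 and 151 on exons only, and cerebrum sites to 155 without Foxp2. The share found in both libraries rose to 58.7% of cerebellum and 66.7% of cerebrum sites with DRACH sites only, and to 58.6% and 43.0% on exons only. The DRACH share became 73.9% and 50.3% on exons only and 80.6% among sites of both libraries. The 3′ UTR share of exonic sites, 88.9% and 74.1%, became 80.95% and 63.6% in the isoform with the longest coding sequence and 95.1% and 90.5% with DRACH sites only, and in cerebrum 90.3% among sites of both libraries. The called share of DRACH adenosines, 6.47% and 5.92% over all exons, became 20% and 16.6% within 1000 nt of the stop codon and 4.93% and 4.15% without Foxp2. The number of genes with more sites in cerebellum, 2, became 3 (Ebf2 added) with at least 1 site and 5 with scaled counts. Rora had a log2 ratio of -0.08 over all kinds of site, and scaling turned those of Foxp2, Ebf1 and Cbln1 to 0.72, 0.34 and 0.32. Ebf3 stayed above 0 in these settings, while the interval of its main value, -0.20 to 3.22, included 0. That interval does not use which sites were shared.

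Without read counts, transcript abundance, methylation level and depth cannot be separated in any of these values. Comparisons of presence are limited by a library with fewer sites overall (79355 against 188295).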
